A study of Mus musculus with 6 samples.

Results

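The NKAIN genes (Nkain1, Nkain2, Nkain3 and Nkain4) and the genes of the sodium pump's beta subunits (Atp1b1, Atp1b2 and Atp1b3) were followed in cultured mesoderm explants of mouse embryos. The 7 genes are 7 of the 46078 rows in the deposited count tables and were found by exact match of their symbol. Nkain4 was chosen by its counts, which were higher with the inhibitor PD and not with the inhibitor YZ9. Its differences between groups are therefore given as a description, with no test. The other 6 were chosen by name as its relatives or as subunits of the pump it is named for, and they were tested in a fit across all genes. Of the 7 genes, 6 passed the filter on low counts, and Nkain2 did not.

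The sodium pump moves sodium out of the cell and potassium in, at the cost of ATP. It is built from a catalytic alpha subunit and a glycosylated beta subunit, which carries the alpha subunit to the plasma membrane. Small FXYD proteins tune its activity, and many exchangers and cotransporters run on the gradients it makes. NKAIN proteins are small membrane proteins named for their interaction with the pump's beta subunit. They are known mainly from the nervous system.

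Mesoderm was dissected from embryos of the late streak to no bud stage (E7.25), after a digestion with trypsin and pancreatin, and plated on fibronectin. The labels call the genotype WT, while the series' design names TCF/Lef:H2B-GFP reporter mice, which would carry the reporter in every group. The 3 groups of 2 libraries were explants labelled control, explants given 1 µM PD for 16 h, and explants given 10 µM YZ9 for 16 h, and it is not stated whether controls received a vehicle. YZ9 blocks PFKFB3, whose product speeds up glycolysis, and the labels give no more of PD than those letters. Whether libraries of a group came from separate cultures is not stated. A p-value here sets a difference between groups against how much these libraries vary, part of which may be technical.

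Total counts were between 21253194 and 27810161 per library. A set of 8 known ERK target genes summed to 575 and 524 CPM (the count scaled to a common library total, corrected by TMM) in the controls, 29.0 and 21.9 CPM with PD, and 611 and 339 CPM with YZ9. Xist, which is transcribed from the inactive X chromosome of females, had 2119 counts in PD replicate 2, 3956 in YZ9 replicate 2 and at most 1 in the other 4 libraries. Y-linked genes had 3 and 0 counts in those libraries and 4286 to 9736 in the others. Each inhibitor group thus held a male and a female library, which therefore came from different embryos. Both controls were male, which does not show whether they did. All 12 mesoderm markers had counts, though Tcf15 had too few to test. Their sums were 462 and 290 CPM in controls, 429 and 854 under PD, and 393.5 and 726.5 under YZ9. Visceral endoderm markers, genes of the layer around the early embryo, summed highest in PD replicate 1, at 92.8 CPM. They summed to 17.7 CPM in PD replicate 2 and 5.46 to 11.3 CPM in the other libraries. Most of the sum in PD replicate 1 was Rbp4 (51.9 CPM) and Afp (34.3 CPM). Ttr and Spink1 were also highest there, at 1.73 CPM each. Apoa1, Apoa4, Apob, Amn and Cubn were highest in other libraries, and Hnf4a had no count in any.

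All 7 genes lie on the minus strand, in the build GRCm38. Nkain4 (ENSMUSG00000027574) lies on chromosome 2, from 180934772 to 180954699, with 7 coding exons and 624 coding bases. Nkain1 (ENSMUSG00000078532) lies on chromosome 4, from 130531602 to 130574173, and Nkain3 (ENSMUSG00000055761) on the same chromosome, from 20118874 to 20778866. Nkain2 (ENSMUSG00000069670) lies on chromosome 10, from 31689310 to 32890462. Atp1b1 (ENSMUSG00000026576) lies on chromosome 1, from 164437109 to 164458355. Atp1b2 (ENSMUSG00000041329) lies on chromosome 11, from 69599736 to 69605942, and Atp1b3 (ENSMUSG00000032412) on chromosome 9, from 96332655 to 96364442.

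The first 54 coding bases of the 4 NKAIN genes are shown, because in Nkain4 they are also the stretch shared with exons of a gene on the opposite strand, Gm14341, and because they show how far the relatives can be told apart. They were read from the GENCODE M21 transcripts, 5′ to 3′ along the gene's own strand, and each stretch lies within 1 exon in GRCm38. Capitals mark the start codon. Nkain4 occupies chr2:180954571-180954624, Nkain1 chr4:130573829-130573882, Nkain2 chr10:32889643-32889696 and Nkain3 chr4:20778262-20778315.
Nkain4: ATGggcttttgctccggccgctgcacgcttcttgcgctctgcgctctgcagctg
Nkain1: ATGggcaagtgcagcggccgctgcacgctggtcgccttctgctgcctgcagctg
Nkain2: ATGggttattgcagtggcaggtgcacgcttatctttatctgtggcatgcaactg
Nkain3: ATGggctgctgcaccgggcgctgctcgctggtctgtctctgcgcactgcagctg

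Over these 54 bases Nkain4 was identical to Nkain3 at 42, to Nkain1 at 41 and to Nkain2 at 36. Over the whole coding sequence it shared 64.5% with Nkain1, 62.9% with Nkain2 and 60.8% with Nkain3. The longest run common to the coding sequences of Nkain4 and a relative was 20 bases, and no word of 31 bases occurred in transcripts of more than 1 of the 4 genes. Among the beta subunits coding identity was lower, from 49.9% between Atp1b1 and Atp1b3 to 55.2% between Atp1b2 and Atp1b3, again with 0 shared words of 31 bases. A read of that length or longer that matches without error could thus belong to only 1 gene of its family.

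Nkain4 was higher in both PD libraries than in any other library. It had 826 and 715 counts in the controls, 3706 and 3524 under PD, and 730 and 664 under YZ9. On the CPM scale these were 30.96 and 26.9 in the controls, 142.5 and 141.8 under PD, and 32.7 and 22.4 under YZ9. Both PD libraries stood far above the other 4, while the control and YZ9 libraries interleaved. The fold difference between PD and control was 4.91 (log2 fold change 2.30, SE 0.22), with group means of 142.2 ± 0.441 and 28.9 ± 2.86 CPM (SD, n = 2). Between YZ9 and control it was 0.951 (log2 fold change -0.07, SE 0.21), and between PD and YZ9 5.16 (log2 fold change 2.37, SE 0.22). In the male libraries alone, with 1 library in each inhibitor group, the log2 fold change of Nkain4 with PD was 2.30. Of the 15568 genes tested, 324 had a larger log2 fold change with PD than Nkain4.

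**Figure D1:**
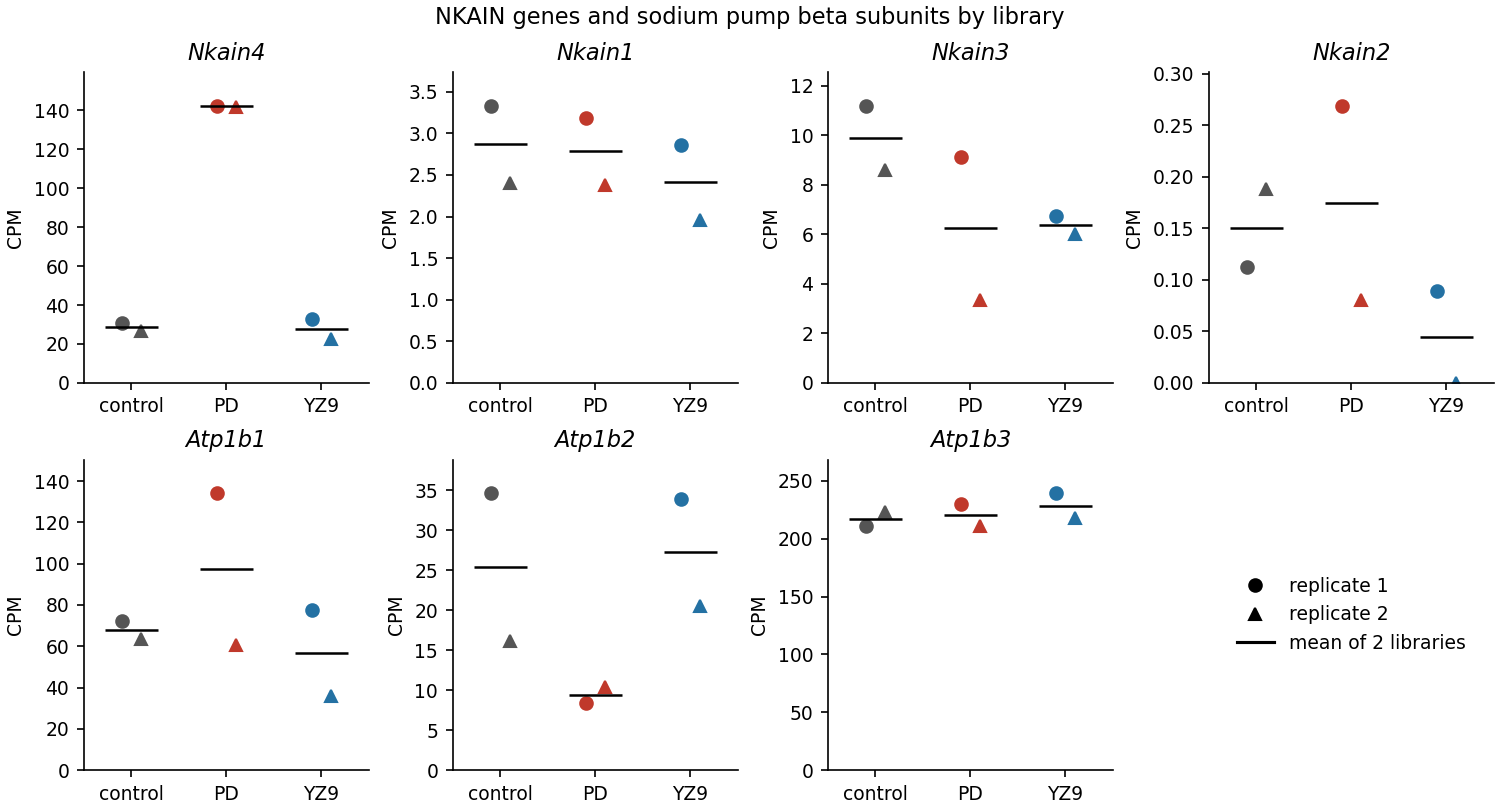
CPM of each NKAIN and beta subunit gene (vertical axes, linear from 0, scaled per gene) in the control, PD and YZ9 libraries, with circles for replicate 1, triangles for replicate 2 and a line at the mean of both. Nkain4 stood at 142 CPM in both PD libraries and below 33 in the others, Atp1b2 was lowest with PD, and Atp1b3 lay between 211 and 240 CPM throughout.

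Markers of other cells also moved between the groups. The 10 epithelial markers summed to 5322 and 4706 CPM in controls, 11058 and 7003 under PD, and 6759 and 5414 under YZ9. Nearly all of these sums was Krt8 and Krt18, keratins of simple epithelia. The other 8 summed to 23.2 and 35.98 CPM in controls, 742 and 132 under PD, and 480 and 185 under YZ9. Each of the 8 was higher in both libraries of either inhibitor than in both controls. Of all tested genes, 38.7% had no overlap in PD against control, 45.7% in YZ9 against control and 43% in PD against YZ9, in either direction. By edgeR's quasi-likelihood test none of the 8 passed an adjusted p under 0.05 against control. The erythroid markers ran from 20.96 CPM in YZ9 replicate 1 to 7802 in control replicate 2, and were at 491 and 7135 in the PD libraries. The 10 neural markers summed to 289 and 283 CPM in controls, 469 and 283 under PD, and 314 and 119 under YZ9, nearly all of it Tubb3 and Stmn2. Sox1 and Neurog2 had no count in any library. Neurod1 had 25 and 25 counts in controls, 0 and 0 under PD, and 0 and 13 under YZ9. Dcx had 2 and 7, 17 and 16, and 10 and 5 counts, and was highest in the PD libraries. Tubb3 was higher in both PD libraries than in both controls, and Pax6 in both YZ9 libraries. Sox2, Elavl3, Elavl4 and Stmn2 overlapped between all groups. No neural marker passed by edgeR at an adjusted p under 0.05. The part of these cell types in the Nkain4 difference was not tested. In such samples more cells that express a gene and more RNA per cell cannot be told apart.

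The library kit does not keep the strand, so reads from Gm14341 over the shared stretch cannot be told apart from reads of Nkain4. The overlap covers 55 bases, which is 4.44% of the annotated exon bases of Nkain4. Gm14341 itself had 4 and 7 counts in controls, 5 and 3 under PD and none under YZ9, while Nkain4 had between 664 and 3706 over the 6 libraries.

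Of the other NKAIN genes, Nkain1 had 89 and 64 counts in the controls, 83 and 59 under PD, and 64 and 58 under YZ9. All groups overlapped. Its mean was 2.87 ± 0.655 CPM in controls, 2.78 ± 0.577 under PD and 2.41 ± 0.644 under YZ9 (SD, n = 2), and edgeR's quasi-likelihood test gave adjusted p = 0.990 for PD and 0.849 for YZ9. The 95% interval of its log2 fold change with PD, taken for this gene alone, ran from -1.07 to 0.98.

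Nkain3 had 299 and 229 counts in controls, 238 and 83 under PD, and 151 and 178 under YZ9. PD replicate 1 lay between the controls and PD replicate 2 below all other libraries, while both YZ9 libraries lay below both controls. The log2 fold change was -0.67 with PD (SE 0.48, edgeR adjusted p = 0.739) and -0.64 with YZ9 (SE 0.48, edgeR adjusted p = 0.652). The PD value rested on replicate 2: it was -0.115 without PD replicate 2 and -1.57 without PD replicate 1. Nkain2 had 3 and 5 counts in controls, 7 and 2 under PD and 2 and 0 under YZ9, too few to test.

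None of the 5 tested relatives and subunits passed the threshold (edgeR, adjusted p under 0.05) in any comparison. Among all 15568 genes, 15 were called for PD against control (0.0964%), 1 for YZ9 against control (0.00642%) and 19 for PD against YZ9 (0.122%). At an unadjusted p under 0.05, Atp1b2 was the 1 of these 5 to pass, in PD against control and in PD against YZ9, where 10.8% and 11.5% of all genes did. DESeq2 on the same genes also called Atp1b2 alone among the 5 in these comparisons, and 4.04% and 3.4% of all genes.

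Atp1b3, the most abundant beta subunit, had 5633 and 5938 counts in controls, 5982 and 5251 under PD and 5352 and 6456 under YZ9. Its libraries spanned 211 to 240 CPM and the groups overlapped. The log2 fold change was 0.02 with PD (SE 0.14, 95% interval -0.30 to 0.35, edgeR adjusted p = 0.983) and 0.07 with YZ9 (SE 0.14, 95% interval -0.25 to 0.40, edgeR adjusted p = 0.863).

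Atp1b1, the beta subunit of most epithelia, had 1930 and 1692 counts in controls, 3493 and 1509 under PD, and 1728 and 1059 under YZ9. In CPM these were 72.3 and 63.7, 134 and 60.7, and 77.4 and 35.7. PD replicate 1 stood alone above the rest and YZ9 replicate 2 alone below, and in both inhibitor groups the male library was higher than the female. The log2 fold change with PD was 0.52 (SE 0.46, edgeR adjusted p = 0.807), and it was -0.161 without PD replicate 1 and 0.982 without PD replicate 2. With YZ9 it was -0.27 (SE 0.46, edgeR adjusted p = 0.852), and 0.201 without YZ9 replicate 2. The male libraries alone, which leave 1 library in each inhibitor group, gave 0.982 and 0.202 for Atp1b1. PD replicate 1 was also the library with the highest sums of epithelial and visceral endoderm markers, whose part in its Atp1b1 level was not tested. The annotated exons of Atp1b1 share 575 bases (18.7%, none of them coding in Atp1b1) with Nme7 on the opposite strand, which was at 25.9 ± 4.67, 30.3 ± 1.21 and 30.3 ± 6.72 CPM in control, PD and YZ9 explants (SD, n = 2).

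Atp1b2, known as a cell adhesion molecule of glia as well as a pump subunit, had 926 and 430 counts in controls, 220 and 258 under PD, and 758 and 608 under YZ9. Both PD libraries, at 8.46 and 10.4 CPM, lay below the other 4, which ran from 16.2 to 34.7 CPM. Groups that do not overlap were common, at 38.7% of all tested genes in PD against control, 45.7% in YZ9 against control and 43% in PD against YZ9. The log2 fold change was -1.43 against control (SE 0.43, 95% interval -2.46 to -0.41) and -1.53 against YZ9 (SE 0.43, 95% interval -2.56 to -0.50), with edgeR adjusted p = 0.277 and 0.291. In the authors' deposited table, made with DESeq2, Atp1b2 has a log2 fold change of -1.43 and an adjusted p of 0.0271 for PD. That table has 594 genes at an adjusted p under 0.05 for PD against control. The 2 controls differed from each other more than the PD libraries did, and the log2 fold change was -0.782 without control replicate 1 and -1.88 without control replicate 2. YZ9 and control explants had 27.2 ± 9.51 and 25.4 ± 13.1 CPM (SD, n = 2, edgeR adjusted p = 0.949). The cardiac markers summed to 5644 and 4766 CPM in controls, 4400 and 1578 under PD, and 4104 and 2086 under YZ9. Much of this was Actc1, at 3309 and 2452 CPM in controls, 2765 and 1217 under PD, and 1654 and 629 under YZ9. Tnnt2, Myl7, Myh6, Tnni1, Ttn and Nkx2-5 were lower in both PD libraries than in both controls, while Actc1 and Myl4 overlapped. Myl7, Myh6, Ttn and Nkx2-5 were also lower in both PD libraries than in both YZ9 libraries. None of the 8 cardiac markers passed in these comparisons by edgeR at an adjusted p under 0.05. The cardiac markers did not all move alike. Nkx2-5 was at 15.1 and 3.39 CPM in controls, 1.85 and 0.564 under PD, and 39.9 and 13.2 under YZ9. The part of the cardiac markers in the Atp1b2 difference was not tested.

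**Figure D2:**
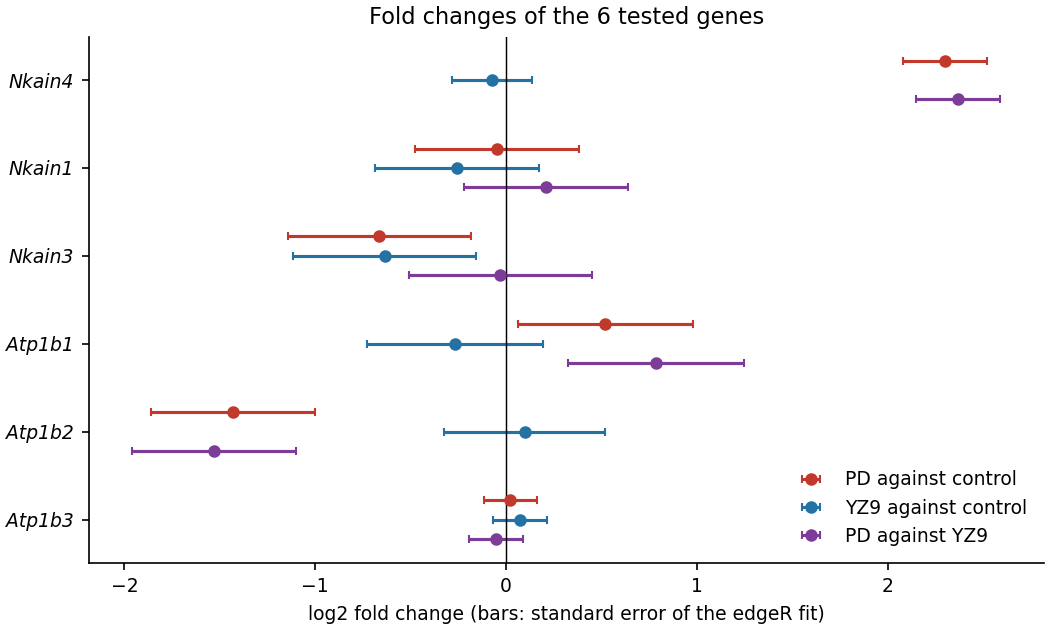
Log2 fold change (horizontal axis) of the 6 genes that passed the filter, with red for PD against control, blue for YZ9 against control and purple for PD against YZ9. Bars are standard errors derived from the F statistic of each comparison. Nkain4, at 2.30 and 2.37, was chosen for this difference, Atp1b2 lay at -1.43 and -1.53 in the PD comparisons, and Atp1b3 lay near 0 in all 3.

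To compare levels between genes, CPM was divided by the kilobases of annotated exon. In controls the order was Atp1b3 at 91.0 ± 3.67, Nkain4 at 23.3 ± 2.31, Atp1b1 at 22.1 ± 1.98, Atp1b2 at 6.23 ± 3.20, Nkain1 at 2.01 ± 0.459, Nkain3 at 1.43 ± 0.263 and Nkain2 at 0.0319 ± 0.0114 CPM per kilobase (SD, n = 2). Nkain4 and Atp1b1 did not differ beyond their spread on this scale. Per kilobase of the longest transcript their control means were further apart, at 30.5 and 26.4. With that length, 3 of the 7 control levels stayed within the SD given here. In the PD libraries Nkain4 reached 115 and 114.5 CPM per kilobase, above Atp1b3 at 96.3 and 88.5, so it was the highest of the 7 genes per length. Per kilobase of the longest transcript the PD means were 149.6 for Nkain4 and 110.7 for Atp1b3.

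Within its family Nkain4 made up 86.3% and 88.0% of the summed CPM per kilobase in controls, 97.0% and 98.1% under PD and 89.8% and 89.0% under YZ9. Among the beta subunits Atp1b3 held most in every library. Its share was 67.8% to 84.6% of the summed CPM per kilobase in the 6 libraries, that of Atp1b1 10.8% to 30.7% and that of Atp1b2 1.46% to 7.06%. The summed beta level was 119 ± 1.52 CPM per kilobase in controls, 126 ± 22.1 under PD and 121 ± 18.4 under YZ9 (SD, n = 2), and differed between groups by less than the spread within the inhibitor groups.

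**Figure D3:**
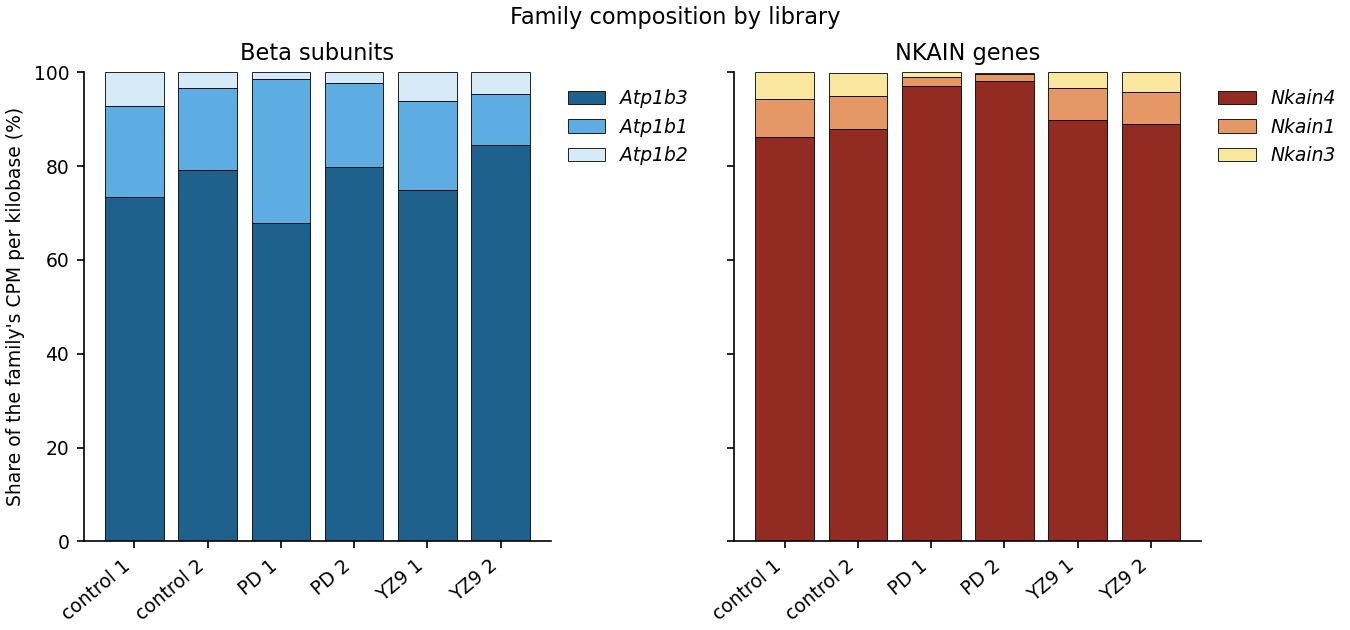
Share of each gene in its family's summed CPM per kilobase (vertical axis, percent) for the beta subunits (left) and the NKAIN genes (right) in each of the 6 libraries. Atp1b3 and Nkain4 made up most of their families in every library, Nkain4 reached 97.0% and 98.1% with PD, and Nkain2, under 0.2%, is not drawn.

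The beta-like gene Atp1b4 had no count in any library. Of the 7 FXYD regulators 4 were tested, and none passed in any comparison by edgeR at an adjusted p under 0.05. At an unadjusted p under 0.05, 3, 0 and 1 of the 4 passed in PD against control, YZ9 against control and PD against YZ9. Of all genes, 10.8%, 11.3% and 11.5% did. DESeq2 on the same genes called Fxyd6 in PD against control, and 4.04% of all genes. Fxyd6, the most abundant, was at 116 and 90.0 CPM in controls, 168 and 205 under PD, and 119 and 136 under YZ9. Both PD libraries lay above the rest, with a log2 fold change of 0.86 against control (edgeR adjusted p = 0.186) and 0.31 for YZ9 (edgeR adjusted p = 0.584). Fxyd5, known as dysadherin, was at 7.27 and 10.1 CPM in controls, 3.73 and 1.13 under PD, and 4.48 and 2.09 under YZ9. It was thus lower in all 4 inhibitor libraries than in both controls (log2 fold changes -1.83 and -1.41, edgeR adjusted p = 0.361 and 0.468). The groups did not overlap for 38.7% of all tested genes in PD against control and 45.7% in YZ9 against control. The PD value of Fxyd5 was -2.94 without PD replicate 1 and -1.22 without PD replicate 2, and its YZ9 value was -2.04 without YZ9 replicate 1 and -0.939 without YZ9 replicate 2. Fxyd1, or phospholemman, was at 0.750 and 0.527 CPM in controls and at 0.192 and 0.121 with PD (log2 fold change -1.99, edgeR adjusted p = 0.424), and Fxyd4 stayed below 0.5 CPM in all libraries. Fxyd2, Fxyd3 and Fxyd7 had too few counts to test, and the highest level among them was 1.192 CPM, of Fxyd3 in PD replicate 1.

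Beyond the pump, 69 further transport genes were listed: 3 proton pumps related to the sodium pump, 9 calcium pumps, 33 exchangers and cotransporters, 13 sodium channels and 11 regulators. With the FXYD genes, the catalytic subunits and Atp1b4 they made 81 genes, of which 56 were tested. In each of the 3 comparisons 0 of the 56 rose and 0 fell by edgeR, while 16, 11 and 12 had an unadjusted p under 0.05 in PD against control, YZ9 against control and PD against YZ9. These are 28.6%, 19.6% and 21.4% of the 56, beside 10.8%, 11.3% and 11.5% of all genes. Limma-trend also called none of the 56, and 0.128%, 0.00642% and 0.218% of all genes. DESeq2 on the same genes called 5 for PD against control (2 higher, among them Fxyd6, and 3 lower, which were Scn3b, Slc4a7 and Slc4a8), 1 for YZ9 against control (Atp2a3 lower) and 2 for PD against YZ9 (Atp2a3 and Scn2a higher), beside 4.04%, 3.33% and 3.4% of all genes. Their median log2 fold change was -0.021 under PD and 0.036 under YZ9, beside 0.0044 and 0.0021 over all genes tested.

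Among the most abundant of these, Atp2b1, a calcium pump of the plasma membrane, was at 413 and 359.5 CPM in controls, 278 and 294 under PD and 241 and 323 under YZ9 (log2 fold change -0.43 with PD, edgeR adjusted p = 0.454). Atp2a2, the calcium pump of the endoplasmic reticulum, had between 144 and 263 CPM, and Atp2c1, that of the Golgi, between 116 and 123 CPM. Slc6a6, the taurine transporter, had between 284 and 638 CPM, and Slc38a1 and Slc38a2, sodium-coupled amino acid transporters, between 257 and 335 CPM and between 228 and 294 CPM. Wnk1, a kinase that regulates sodium and chloride cotransport, had between 158 and 214 CPM. Sgk1, a kinase induced by steroid hormones and serum, had 98.5 and 16.9 CPM in PD replicates 1 and 2, which enclosed the other 4 libraries. The WNK target kinase Oxsr1 was at 32.8 and 34.4 CPM in controls and 46.6 and 44.5 with PD (log2 fold change 0.44, edgeR adjusted p = 0.401). Scn2a, a neuronal sodium channel, was at 6.97 and 6.96 CPM in controls, 6.46 and 7.81 under PD, and 1.88 and 3.54 under YZ9. Scn3b, a sodium channel beta subunit, was at 15.4 and 10.4 CPM in controls, 2.42 and 3.30 under PD, and 7.17 and 3.95 under YZ9 (log2 fold change -2.17 with PD, edgeR adjusted p = 0.157).

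The genes whose pattern was most like that of Nkain4 were ranked by Pearson's r of log2(CPM + 0.5) over the 6 libraries, among 2950 other tested genes with a mean of at least 5 CPM and a range of at least 1 on the log2 scale. The ranking is a description: the points share libraries and groups, and a high r here means mainly that a gene was high in both PD libraries and even in the others. The 6 highest were F3, which encodes tissue factor (r = 0.9948), Birc7, an inhibitor of apoptosis (0.9868), Hspb8, a small heat shock protein (0.9834), Rell1 (0.9817), Gng3, a G protein gamma subunit (0.9804), and Mboat1, an acyltransferase (0.9804). Their log2 fold changes with PD were 1.16, 1.87, 1.51, 0.81, 1.56 and 1.45. F3 was at 94.7 and 87.0 CPM in controls, 204 and 201 under PD, and 97.0 and 70.7 under YZ9. The 3 lowest were Fbxl17, an F-box protein (-0.9696), and the ERK feedback inhibitors Spry2 (-0.9706) and Spred1 (-0.9729), with log2 fold changes of -0.86, -3.81 and -2.91. Of the members, Atp1b2 had r = -0.79 and Atp1b1 r = 0.59 with Nkain4.

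**Figure D4:**
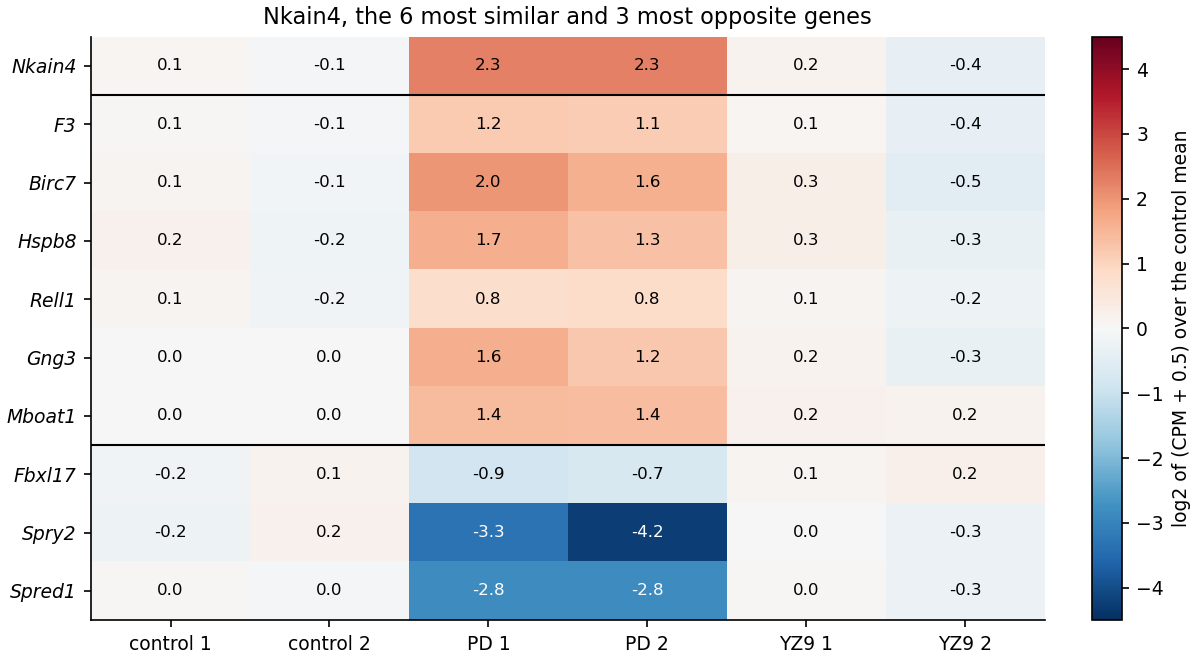
Heat map of log2 of (CPM + 0.5) over the control mean for Nkain4 (top row), the 6 genes most like it and the 3 most opposite (rows) in the 6 libraries (columns). Both PD libraries are high for Nkain4 and the 6 similar genes and low for Fbxl17, Spry2 and Spred1, and the YZ9 libraries stay near the controls.

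Birc7, second in that ranking, is also the nearest downstream neighbour of Nkain4. It lies on chromosome 2 from 180929023 to 180934010, on the plus strand, so the annotated 3′ ends of both genes face each other across 761 bases. Birc7 had 274 and 229 counts in controls, 1024 and 742 under PD, and 254 and 193 under YZ9, and its PD libraries stood above all others. Its log2 fold change with PD was 1.87 (SE 0.34), which did not pass (edgeR adjusted p = 0.136). The ranking of Birc7 and this adjusted p rest on the same counts, so neither adds support to the other. Birc7 counts amounted to 33.2% and 32.0% of the Nkain4 counts in the same library in controls, 27.6% and 21.1% under PD, and 34.8% and 29.1% under YZ9. As the strand was not kept, reads of a Nkain4 transcript that runs past its annotated end into Birc7 cannot be told apart from reads of Birc7.

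Of the other 3 genes tested within 50 kb of Nkain4, none stood apart in the PD libraries alone. Ythdf1, a reader of methylated RNA that lies beyond Birc7, was at 48.2 ± 2.01 CPM in controls, 39.2 ± 6.21 under PD and 39.0 ± 1.37 under YZ9 (SD, n = 2, log2 fold change with PD -0.30, edgeR adjusted p = 0.677). Arfgap1, upstream of Nkain4, was at 32.0 ± 16.4, 43.7 ± 20.8 and 41.9 ± 8.54 CPM (SD, n = 2), and the groups overlapped. The gene annotated as BX649560.1, named 9230112E08Rik in the count tables, had 14 and 21 counts in controls, 29 and 28 under PD and 32 and 35 under YZ9. The remaining 5 annotated genes, among them Gm14341, had too few counts to test.

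**Figure D5:**
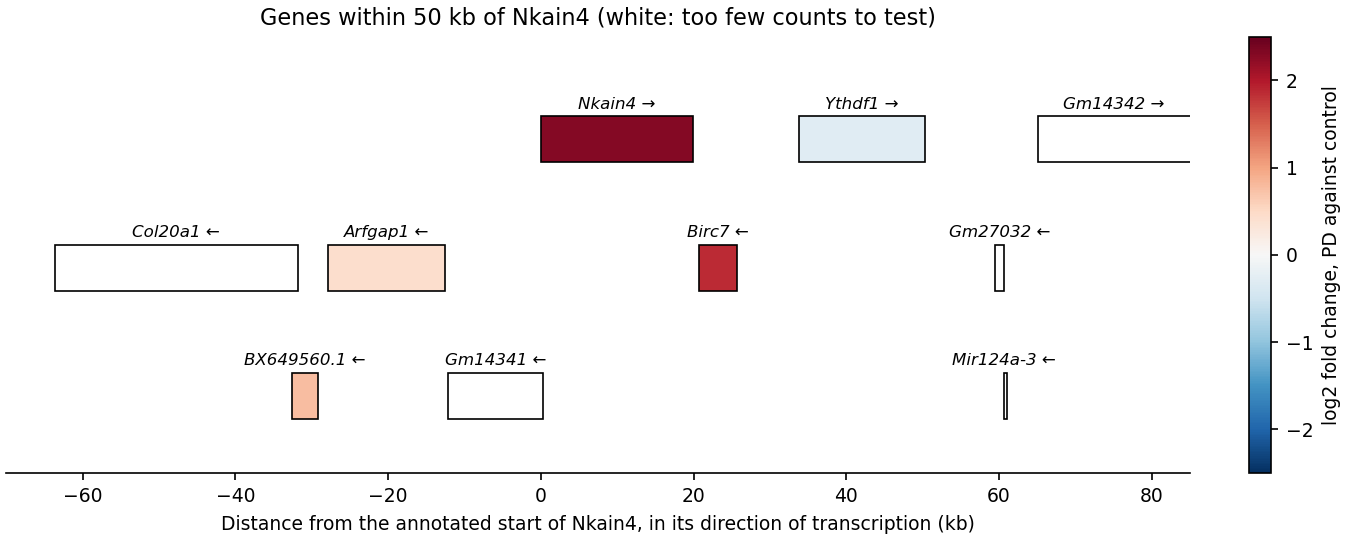
Map of annotated genes within 50 kb of Nkain4 (boxes, arrows for direction), by distance in kb from its annotated start along its direction of transcription, coloured by log2 fold change of PD against control. Nkain4 at 2.30 and its tail-to-tail neighbour Birc7 at 1.87 are red, Ythdf1 is pale blue at -0.30, Arfgap1 and BX649560.1 are pale red, and white boxes had too few counts to test.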

How the data were processed

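Per the submitters' processing notes, CASAVA 1.8.2, STAR 2.7.9a and DESeq2 1.40.1 were used with the build GRCm38. For the counting step, nothing is given in the sources used here. Per the file headers, the 2 deposited tables give each gene's whole-number count in each library. The deposited normalized columns hold a signal, each count divided by a size factor of its library. The deposited log2 fold changes, the deposited Wald score and the deposited p-value columns are from the authors' DESeq2 test. Control counts were identical in both tables, so they were joined into 6 libraries.

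Genes were filtered with filterByExpr (minimum count 10, total 15), leaving 15568 of 46078, scaled by TMM and compared in R 4.3.3 with edgeR 4.0.16 (quasi-likelihood, all 6 libraries, 2-sided, Benjamini-Hochberg over all genes tested, threshold 0.05; common dispersion 0.101). The SE of an edgeR log2 fold change is its absolute value divided by the square root of the F statistic of that comparison. For Nkain4 this SE is a description only, as it carries the same information as a test. Intervals use this SE and the residual degrees of freedom plus the prior ones the fit draws from all genes (6.59 in total). Gene models and transcripts came from GENCODE M21, and sequences were compared with Biopython 1.88. The pipeline was tested on simulated data. Between the 2 libraries of a group the chi-square per gene was 51.9 (control), 90.7 (PD) and 58.4 (YZ9), where sampling alone gives about 1. For genes of few counts, such as Nkain2, depth limited what could be tested.

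The members and lists were chosen with earlier results of these data known. Named genes were the members, the FXYD genes, abundant members of other lists, neighbours within 50 kb and genes most like Nkain4. Some genes of these lists are not reported here. Krt8, Krt18, Tubb3, Stmn2, Sox1, Neurog2, Atp2a3, Slc4a7 and Slc4a8 were named after their values were seen. So was each mesoderm, definitive endoderm, neural and cardiac marker named above. Alternatives were DESeq2 size factors, other filters, DESeq2 1.42.0, limma-trend (limma 3.58.1, prior count 3), edgeR's newer fit, the 4 libraries of a comparison, the replicate number as a block, sex as a covariate, male libraries alone and leaving out each library.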

Additional observations from a re-analysis of the deposited data

How the results depend on the processing

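Nkain4 was chosen for its rise with PD and not with YZ9 in these same libraries, so its values here are a description and no test. Nkain4 was higher with PD than in controls under all 17 alternatives, with log2 fold changes from 2.20 to 2.44, the last with sex as a covariate, and from 2.10 to 2.66 against YZ9. Its difference between YZ9 and control ran from -0.361 to 0.191. Of the tested members, Atp1b2 alone passed the threshold under some alternatives, with a negative difference in all 17. It passed with PD against control with no filter (-1.43) and with DESeq2 with or without the filter (both -1.42), and against YZ9 under the same settings (-1.54, -1.53 and -1.53), with adjusted p from 0.0166 to 0.666 and from 0.0111 to 0.720 over all alternatives.

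Small differences changed sign, and the cause was not tested. Leaving out 1 library gave ranges of -0.272 to 0.206 (PD against control), -0.544 to 0.0123 (YZ9 against control) and -0.0586 to 0.499 (PD against YZ9) for Nkain1, and -0.931 to 0.509 for Nkain3 in PD against YZ9. For Atp1b1 it gave -0.161 to 0.982 with PD and -0.92 to 0.201 with YZ9, for Atp1b2 -0.353 to 0.748 with YZ9, and for Atp1b3 -0.0385 to 0.0815 with PD and -0.136 to 0.0099 in PD against YZ9. With sex as a covariate Nkain1 was at 0.182 with PD and Atp1b1 at 0.194 with YZ9. In the male libraries alone, where the 1 library of each inhibitor is assumed to vary like the controls, Nkain1 was at 0.152 with PD and 0.0124 with YZ9, Nkain3 at 0.421 in PD against YZ9, and Atp1b1 at 0.202 with YZ9. Birc7 passed with PD under 5 alternatives (adjusted p between 3.03e-05 and 0.674), Scn3b under 4 and Fxyd6 under 3. The Birc7 calls rest on the same counts as its ranking by likeness to Nkain4.

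The number of genes called moved more than the members. For PD against control (15 genes) it was 712 with no filter, 629 and 604 with DESeq2 with and without the filter, 124 with sex as a covariate, 428 in the male libraries alone, and 0 to 33 without 1 library, with 0 without control replicate 1 or 2 (edgeR, 1314 and 1117 at an unadjusted p under 0.05). For YZ9 against control (1 gene) it was 556, 519, 509, 122 and 183 in that order, 5 in the 4 libraries alone, and 0 to 9 without 1 library. For PD against YZ9 (19 genes) it was 601, 529, 508, 173 and 132, 34 with limma-trend, 29 with edgeR's newer fit, 0 in the 4 libraries alone (1539 at an unadjusted p under 0.05), and 0 to 35 without 1 library. With the replicate block it was 1, 3 and 12 in these comparisons. The labels do not say that replicate numbers mark shared embryos or days, and same-numbered libraries' deviations from their group means correlated at -0.0985 (control with PD), 0.166 (control with YZ9) and 0.353 (PD with YZ9).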
